A study of Canis lupus familiaris with 8 samples.

Results

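This account covers 38 genes of the cell cycle in the pituitary and adrenal cortex of dogs. The genes were listed by name for what they do: cyclins and their inhibitors, enzymes and loading factors of DNA replication, and kinases, motors and checkpoint proteins of mitosis. Of the 38 symbols, 34 matched a row among the 24580 genes of the deposited tables, and CCNB1, CCNB2, CENPF and TYMS did not match and are not analysed here under those symbols. A row named TS carries the description of thymidylate synthase, the product of TYMS, and its values are given separately and kept out of every count. Messenger RNA was sequenced from 8 libraries, 1 for each combination of gland, breed and exposure, all from adult dogs. The breeds were Beagle and Chinese Field Dog, and the exposures were chronic stress and an arm named non-disposal in the labels, read here as unexposed. What the stress consisted of, how long it lasted, and whether a library came from 1 animal or a pool are not given in the labels. The RNA extraction text mentions the spleen, but the tissue field of every sample names one of these glands, and the tissue field was followed.

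A cell that divides first passes from G1 into DNA synthesis, driven by D-type and E-type cyclins that activate cyclin-dependent kinases (CDKs) and release E2F factors, which switch on replication genes. MCM proteins form the replicative helicase on DNA. After DNA synthesis, A- and B-type cyclins with CDK1 start mitosis, when spindle and checkpoint genes reach their peak. CDKN1A (p21) and CDKN1B (p27) hold CDKs back and keep cells at rest. Most cells of adult endocrine glands rest in G1, so messages made only during replication and mitosis are usually scarce in bulk tissue. In a bulk sample, fewer cells of a type and less RNA per cell cannot be told apart.

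The libraries held 14327357 to 18712035 recovered reads, and 2 of the labelled stressed libraries (Beagle adrenal cortex and Chinese Field Dog pituitary) have read numbers that are near the true counts and not exact. Adrenal steroid genes summed to 15022 to 19504 FPKM (fragments per kilobase of gene, scaled to sequencing depth) in the adrenal libraries and to 69.1 to 97.9 FPKM in the pituitary, where MC2R and MRAP were at 0 reads. Pituitary hormone and lineage genes summed to 82303 to 165837 FPKM in the pituitary and to 31.6 to 54.1 FPKM in the adrenal cortex. The lowest pituitary sum is that of the unexposed Beagle, where GH1 is listed at 0 with a status that the authors did not test (HIDATA), against 73846 to 81835 FPKM in the other pituitary libraries. Medulla genes, some of which the pituitary also expresses, summed to 3189 to 5593 FPKM in the adrenal libraries and to 1334 to 1686 in the pituitary. The stressed Chinese Field Dog pituitary also stood apart, with 1611 FPKM of forebrain neuron markers against 135 to 141 in the other pituitary libraries and 502 FPKM of glial markers against 33.7 to 95.3.

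Levels spanned a wide range between the genes. On the FPKM scale, which is per gene length, 8 of the 34 genes averaged under 1 over the 8 libraries, 20 averaged 1 to 10 and 6 averaged 10 or more. The 6 were PCNA, CDKN1B, CCND2, CCND1, MCM7 and MCM6, all genes of G1 or of replication. The 8 under 1 were BUB1, KIF20A, TTK, KIF11, KIF23, FOXM1, MKI67 and BUB1B, all genes of mitosis or its control. No gene was at 0 reads in any library, the lowest value was 3 reads (BUB1, unexposed Beagle pituitary), and 3 genes had under 10 reads in some library. All 34 passed the filter on low values (a mean scaled count of 10), as did 15445 genes in all.

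**Figure D1:**
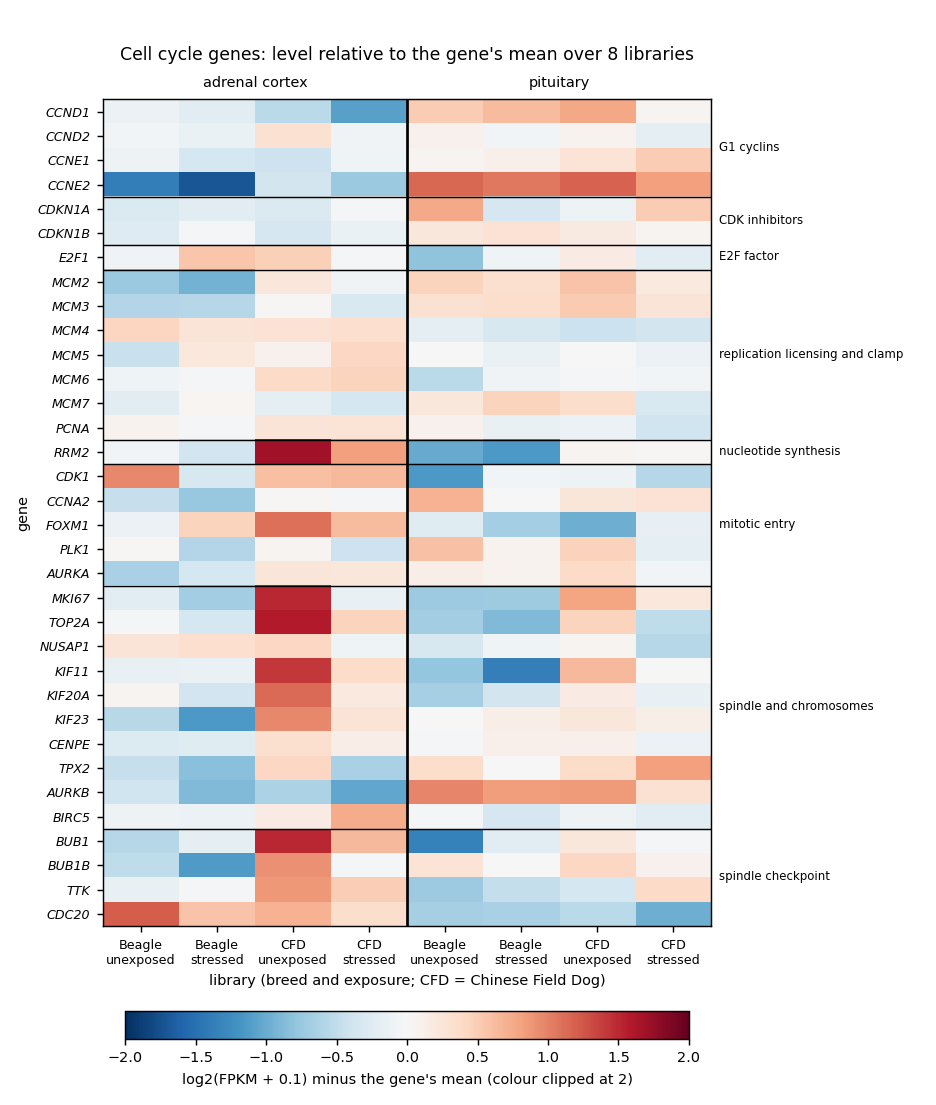
Level of each of the 34 genes (rows, grouped by role) in each of the 8 libraries (columns), as log2(FPKM + 0.1) minus the gene's mean over the libraries, with red above and blue below that mean and colours clipped at 2. CCNE2 and AURKB are red in all 4 pituitary columns, and 20 of the 34 genes have their highest adrenal level in the unexposed Chinese Field Dog.

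The first comparison set the 4 pituitary libraries against the 4 adrenal libraries, paired by breed and exposure. Of the 4 G1 cyclins, CCND1, CCNE1 and CCNE2 rose in the pituitary and CCND2 was not called. The mitotic kinase AURKB and the helicase subunits MCM2, MCM3 and MCM7 also rose, as did the inhibitor CDKN1B. CDC20, RRM2, TOP2A, KIF11, MCM4, NUSAP1 and MCM6 fell. In all, limma called 15 of 34 at an adjusted p under 0.05, 8 higher and 7 lower in the pituitary. At an unadjusted p under 0.05 there were 20, against 65.7% of all genes. The same fit called 61.0% of all genes tested, 30.4% higher and 30.5% lower, so the cell cycle genes were called no more often than genes at large. Their median log2 difference was -0.08 against 0.02 over all genes, and the median size of the difference was 0.489 against 0.625.

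Cyclin E2 (CCNE2), which pairs with CDK2 to start DNA synthesis, showed the largest difference among the 34. Its gene lies on chromosome 29, positions 39535065 to 39546592 of CanFam3.1. In the adrenal cortex CCNE2 stood at 0.995 FPKM (16 reads) in the unexposed Beagle, 0.780 (14 reads) in the stressed Beagle, 2.13 (43 reads) in the unexposed Chinese Field Dog and 1.61 (25 reads) in the stressed Chinese Field Dog. In the pituitary, in the same order, CCNE2 was at 6.24, 5.84, 6.37 and 4.99 FPKM, from 89 to 124 reads. The glands did not overlap: 5.86 ± 0.624 FPKM in the pituitary against 1.38 ± 0.611 in the adrenal cortex (SD over breeds and exposures, n = 4 each). The log2 difference was 2.10 (SE 0.27, limma adjusted p = 0.00145) on the scale of log2(FPKM + 0.1), on which all fitted differences are given. Cyclin E1 (CCNE1), its close relative, differed less, from 4.22 to 5.33 FPKM in the adrenal cortex and from 5.90 to 8.12 in the pituitary, a log2 difference of 0.48 (SE 0.14, limma adjusted p = 0.0274).

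Cyclin D1 (CCND1) links growth signals to CDK4 and CDK6. It was at 18.6, 17.2, 13.9 and 9.46 FPKM in the adrenal libraries of unexposed Beagle, stressed Beagle, unexposed Chinese Field Dog and stressed Chinese Field Dog, and at 28.9, 31.3, 34.7 and 21.1 FPKM in the pituitary. All 4 pituitary values lay above all 4 adrenal ones, and the log2 difference was 0.99 (SE 0.13, limma adjusted p = 0.00169). Cyclin D2 (CCND2), which does the same task, was at 33.5 ± 4.80 FPKM in the adrenal cortex and 32.7 ± 2.76 in the pituitary (SD, n = 4 each). Its log2 difference was -0.03.

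CDKN1B, the inhibitor that marks resting cells, was at 35.2, 41.3, 33.1 and 38.3 FPKM in the adrenal libraries in that order and at 48.9, 51.4, 47.6 and 43.7 FPKM in the pituitary. The ranges were apart, with a log2 difference of 0.37 (SE 0.09, limma adjusted p = 0.0124). CDKN1A, the inhibitor induced by p53 and by glucocorticoids, was not called. It lay between 7.75 and 9.27 FPKM in the adrenal cortex and between 7.51 and 16.2 in the pituitary, where its 4 values were spread most widely.

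Of the 6 MCM subunits measured here, which together form 1 ring on DNA, MCM2, MCM3 and MCM7 rose in the pituitary, MCM4 and MCM6 fell, and MCM5 was not called. MCM3 ran from 4.0 to 6.15 FPKM in the adrenal cortex and from 7.19 to 8.73 in the pituitary (log2 difference 0.72, SE 0.13, limma adjusted p = 0.00564). MCM4 ran the other way, from 8.94 to 10.1 FPKM in the adrenal cortex and from 5.55 to 6.52 in the pituitary (log2 difference -0.65, SE 0.10, limma adjusted p = 0.0029). Both genes had glands whose ranges did not overlap, while the ranges of MCM2, MCM6 and MCM7 did. The replication clamp PCNA, the most abundant of the 34, was at 50.6 to 63.1 FPKM in the adrenal cortex and 39.5 to 55.2 in the pituitary and was not called. RRM2, the regulated subunit of ribonucleotide reductase, was lower in the pituitary in every pair (log2 difference -1.03, SE 0.24, limma adjusted p = 0.0132). The TS row was at 20.9 to 24.9 FPKM in the adrenal cortex and 31.1 to 42.1 in the pituitary, with a log2 difference of 0.70 (SE 0.12, limma adjusted p = 0.00356).

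Of the 5 genes of mitotic entry measured (CDK1, CCNA2, FOXM1, PLK1 and AURKA), limma called 0. FOXM1, the factor that drives mitotic genes, was at 0.516, 0.810, 1.34 and 0.937 FPKM in the adrenal libraries and at 0.467, 0.318, 0.240 and 0.495 in the pituitary. Its ranges did not overlap, but they rest on 9 to 52 reads, and the limma adjusted p was 0.0545. CDK1, the kinase of mitosis, ran from 2.82 to 6.96 FPKM in the adrenal cortex and from 1.53 to 3.38 in the pituitary, with overlap.

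Among the 10 spindle and chromosome genes, 1 rose and 3 fell. AURKB, the kinase of the chromosomal passenger complex, was at 5.22, 3.71, 4.39 and 3.30 FPKM in the adrenal libraries and at 13.7, 12.3, 12.5 and 8.60 in the pituitary, in the order above. Its means were 4.16 ± 0.843 and 11.8 ± 2.20 FPKM (SD, n = 4 each), with no overlap, and its log2 difference of 1.48 had the smallest adjusted p of the 34 (SE 0.12, limma adjusted p = 0.000278). BIRC5 (survivin), a partner of AURKB in that complex, was at 6.62 to 12.0 FPKM in the adrenal cortex and 5.67 to 7.05 in the pituitary and was not called. TOP2A, the topoisomerase that untangles chromosomes, fell by 0.82 in the pituitary (SE 0.20, limma adjusted p = 0.0160), and the spindle motor KIF11 fell by 0.74 (SE 0.26, limma adjusted p = 0.0487). MKI67, which encodes the Ki-67 antigen used to stain dividing cells, had a log2 difference of -0.22 and was not called (limma adjusted p = 0.519).

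CDC20, the activator of the anaphase-promoting complex, was the only checkpoint gene of 4 that limma called. It was at 6.71, 4.27, 4.65 and 3.64 FPKM in the adrenal libraries and at 1.74, 1.76, 1.92 and 1.39 in the pituitary, with no overlap (log2 difference -1.42, SE 0.18, limma adjusted p = 0.00134). Its locus overlaps ELOVL1, a fatty acid elongase gene, which was at 25.1 to 40.8 FPKM in the adrenal cortex and 10.1 to 12.2 in the pituitary, a log2 difference of -1.48. Whether reads were counted by strand is not given in the sources used here, so reads of the overlapping pair cannot be told apart and the CDC20 value is uncertain. In all, 10 of the 34 loci overlap another gene, among them MCM7 with COPS6, BUB1B with PAK6, and the 244213-base BIRC5 locus with 6 genes. The rest are KIF20A with CDC23, CCNA2 with EXOSC9, PLK1 with ERN2, BUB1 with SNORA29, TOP2A with a gene without a symbol, and NUSAP1 with such a gene and U6. CDC23 was at 5.27 to 8.99 FPKM and EXOSC9 at 18.7 to 25.9 over the 8 libraries. The part of overlapping genes in these values was not tested.

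**Figure D2:**
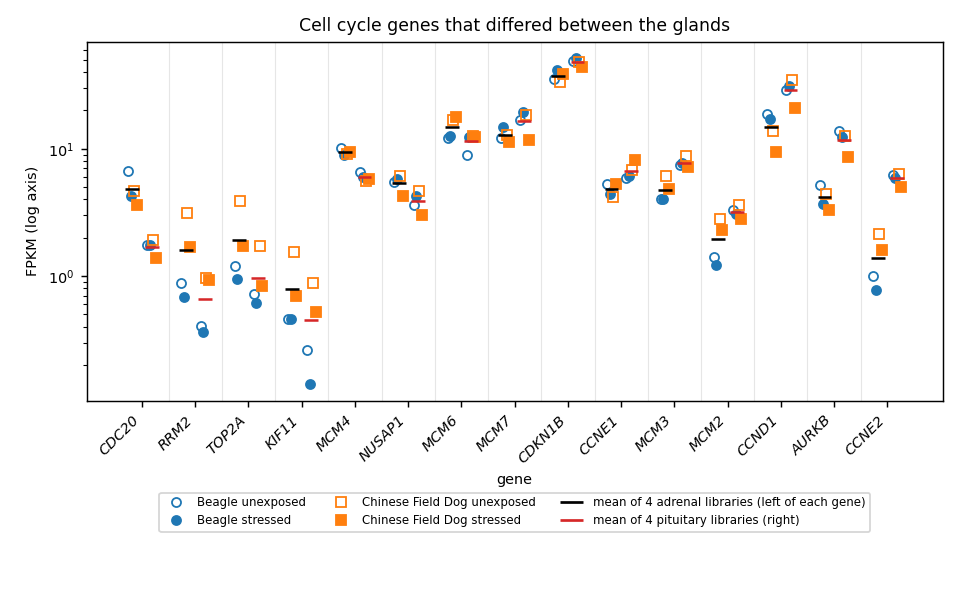
FPKM (log axis) of the 15 genes that limma called between the glands, one mark per library, with adrenal libraries to the left and pituitary libraries to the right of each gene name and a bar at each gland's mean. For CCNE2, AURKB and CCND1 every pituitary mark lies above every adrenal mark; for CDC20 and MCM4 every one lies below.

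Of the 34 genes, 6 had all 4 pituitary values above all 4 adrenal values (AURKB, CCND1, CCNE1, CCNE2, CDKN1B and MCM3), against 29.5% of all genes, and 3 had them all below (CDC20, FOXM1 and MCM4), against 29.1%. By single pairs, 7 genes differed at least 2-fold between the glands of the unexposed Beagle (34.1% of all genes) and 8 did after stress (33.5%). For the Chinese Field Dog these numbers were 9 without stress (32.9%) and 6 after it (40.3%). AURKB, CCNE2 and CDC20 were among them in all 4 pairs. AURKB, CCND1, CCNE2, CDC20, MCM3 and MCM4 were called under each of the 10 other settings tried. RRM2 and TOP2A were called under 9 of the 10, CDKN1B under 8, CCNE1, MCM6 and MCM7 under 7, MCM2 and NUSAP1 under 6, and KIF11 under 4 of the 9 that tested it. The count depended on the pairs used, and so did the 9414 calls over all genes. Without the unexposed Beagle pair 10 were called (8217 of all genes), and without the stressed Beagle pair 11 (7559). The lowest count came without the unexposed Chinese Field Dog pair, where it was 7 and not 15 (7389 of all genes). The calls for CCNE1, CDKN1B, KIF11, MCM2, MCM6, MCM7, NUSAP1, RRM2 and TOP2A were then lost, and TPX2 was gained. Without the stressed Chinese Field Dog pair, which holds the pituitary library with forebrain RNA, 16 were called (9955 of all genes). There CCNE1 and MCM6 were lost, and CCNA2, E2F1 and PLK1 were gained.

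Other genes of the pathway, from lists of textbook members, were called in both directions, and the shares below stand beside 61.0% of all genes called by the same fit. Of 21 other G1 and exit regulators tested, 3 rose and 7 fell in the pituitary, and the differences with the largest sizes belonged to inhibitors and cyclins of G1. CDKN2A averaged 17.4 FPKM in the adrenal cortex and 1.3 in the pituitary (log2 difference -3.68), and CDKN2B, its neighbour and a CDK4 inhibitor like it, 9.09 and 1.44 (-2.63). CCND3, the third D-type cyclin, averaged 72.6 and 16.5 FPKM (-2.14), the opposite direction to CCND1, while the CDK-activating phosphatase CDC25B averaged 4.27 and 17.2 FPKM (1.93). Of 31 other mitotic genes 3 rose and 4 fell, led by the kinetochore gene NUF2 (-1.93) and the cytokinesis gene ANLN (1.60). Of 19 other replication genes 3 rose and 1 fell, led by the chromatin remodeller HELLS (1.27) and the clamp loader RFC4 (-0.81). Of 10 p53-induced genes 3 rose and 5 fell, led by BTG2 (58.5 against 9.18 FPKM, log2 difference -2.71) and CCNG1 (427 against 88.3 FPKM, -2.25). BTG2 is known as a brake on division.

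The second comparison set Chinese Field Dog against Beagle. No gene of the 34 passed the test in either gland, so the ratios that follow describe single libraries. In the unexposed adrenal pair 26 of 34 genes had the higher level in Chinese Field Dog, against 44.1% of all genes. The median log2 ratio was 0.54 against -0.04 over all genes. There 11 genes were at least 2-fold higher (BUB1, BUB1B, CCNE2, FOXM1, KIF11, KIF20A, KIF23, MKI67, RRM2, TOP2A and TTK) against 2.69% of all genes, and 0 were 2-fold lower, against 4.4%, so that 11 of 34 differed 2-fold where 7.09% of all genes did. In the stressed adrenal pair 27 of 34 were higher, against 48.1% of all genes. Of the 34, 3 reached 2-fold (BUB1B, KIF23 and RRM2), against 2.64% of all genes 2-fold higher and 5.83% different. Each ratio of a pair compares 2 libraries and has no replicate check.

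TOP2A was at 1.19 FPKM (91 reads) in the unexposed and 0.947 (80 reads) in the stressed Beagle adrenal cortex, and at 3.89 (400 reads) and 1.71 (137 reads) in the Chinese Field Dog. MKI67 was at 0.475 (52 reads) and 0.312 (38 reads) in the Beagle, and at 1.79 (245 reads) and 0.503 (53 reads) in the Chinese Field Dog. For both genes the unexposed Chinese Field Dog library lay well above the other 3, and the stressed one lay nearer to the Beagle. For MKI67 the log2 ratio of scaled reads between the unexposed libraries was 1.91, with a 95% exact interval of 1.48 to 2.38 that covers counting error only.

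RRM2 was at 0.879 FPKM (22 reads) in the unexposed and 0.681 (19 reads) in the stressed Beagle adrenal cortex, and at 3.15 (99 reads) and 1.70 (41 reads) in the Chinese Field Dog. In the pituitary RRM2 was at 0.408 (12 reads) and 0.362 (11 reads) in the Beagle, and at 0.958 (29 reads) and 0.938 (26 reads) in the Chinese Field Dog. The breeds did not overlap in either gland, and RRM2 had the lowest p of the 34 for the breed difference averaged over glands. That log2 difference was 1.29 (SE 0.23), higher in 4 of 4 pairs, and missed the threshold (limma adjusted p = 0.191).

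KIF11, the motor that pushes spindle poles apart, was at 0.459, 0.464, 1.55 and 0.704 FPKM in the adrenal libraries of unexposed Beagle, stressed Beagle, unexposed Chinese Field Dog and stressed Chinese Field Dog, from 40 to 169 reads. In the pituitary KIF11 was at 0.264, 0.141, 0.876 and 0.520 FPKM, from 15 to 92 reads. KIF23, a motor of cytokinesis, was at 0.364, 0.207, 1.23 and 0.728 FPKM in the adrenal libraries, from 11 to 67 reads. KIF23 showed no such breed pattern in the pituitary, where it ran from 0.588 to 0.697 FPKM. The checkpoint kinase BUB1 was at 0.164, 0.240, 1.02 and 0.512 FPKM in the adrenal cortex (8 to 62 reads), and its relative BUB1B at 0.467, 0.267, 1.41 and 0.684 FPKM (14 to 83 reads). Each of these genes was highest, among adrenal libraries, in the unexposed Chinese Field Dog.

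**Figure D3:**
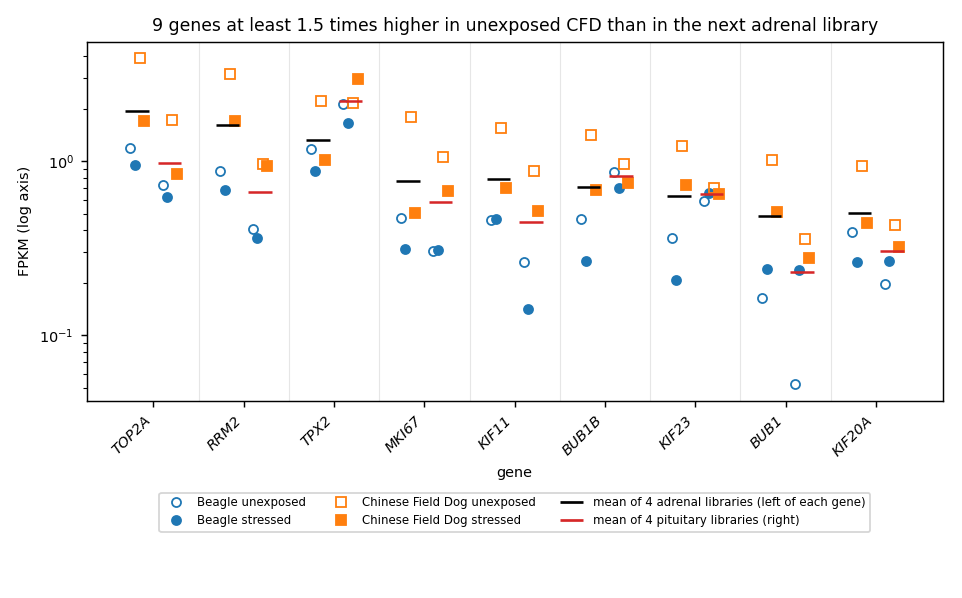
FPKM (log axis) of 9 genes whose adrenal level in the unexposed Chinese Field Dog (CFD) was at least 1.5 times that of the next adrenal library, one mark per library, adrenal left and pituitary right of each name, with a bar at each gland's mean. Open squares, the unexposed Chinese Field Dog, stand highest among the adrenal marks of each gene, by the way the genes were picked.

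Among the adrenal libraries, the unexposed Chinese Field Dog held the highest adrenal value for 20 of 34 genes (17.5% of all genes) and the highest of all 8 libraries for 13 (7.12%). It exceeded the next adrenal library by at least 1.5 times for 9 genes (BUB1, BUB1B, KIF11, KIF20A, KIF23, MKI67, RRM2, TOP2A and TPX2) against 1.61% of all genes. This last rule was chosen after the values were seen and is a description. In the unexposed adrenal pair 44.1% of all genes were higher in Chinese Field Dog. Of the other lists, 27 of 31 other mitotic genes were higher (median log2 ratio 0.51), and 17 of 19 other replication genes (median 0.41). Of 21 other G1 and exit regulators 12 were higher (median 0.05).

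Over both exposures, 23 of 34 genes had the higher adrenal level in Chinese Field Dog in both pairs (25.6% of all genes), and 4 were lower in both (AURKB, CCND1, CDC20 and CDKN1B, against 32.7%). In the fit, limma called 0 of 34 for the adrenal breed difference, 9 had an unadjusted p under 0.05 (8.05% of all genes), and the median log2 difference was 0.48 against -0.03 over all genes. By adjusted p the same fit called 0.0% of all genes, so 0 calls among the 34 is also the background. Of the 9, the 8 higher in the Chinese Field Dog were AURKA, BUB1B, CCNE2, KIF23, MCM2, MCM6, RRM2 and TOP2A, and CCND1 was lower. edgeR and DESeq2 on recovered reads also called 0 for the adrenal breed difference, with 12 and 6 at an unadjusted p under 0.05, and DESeq2 gave an adjusted p for 24 of the 34 there. Of all 15445 genes, edgeR called 0 and DESeq2 104 there. Shares of all genes at that unadjusted p were not worked out for edgeR and DESeq2, here or below.

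In the pituitary 11 of 34 genes had the higher level in Chinese Field Dog at both exposures (24.8% of all genes) and 6 were lower (30.7%). In the unexposed pair 6 genes were at least 2-fold higher (BUB1, CDK1, KIF11, MKI67, RRM2 and TOP2A) against 3.52% of all genes higher and 5.67% different, and in the stressed pair 2 (KIF11 and RRM2) against 10.0% higher and 13.7% different. MKI67 was at 0.303 FPKM (39 reads) and 0.308 (41 reads) in the Beagle and at 1.05 (139 reads) and 0.670 (81 reads) in the Chinese Field Dog. TOP2A was at 0.726 (68 reads) and 0.620 (66 reads) in the Beagle and at 1.71 (163 reads) and 0.838 (81 reads) in the Chinese Field Dog. Both genes were again highest in the unexposed Chinese Field Dog. For the pituitary breed difference limma called 0 of 34 (background 0.0129%), 3 had an unadjusted p under 0.05 (KIF11, MKI67 and RRM2, background 8.94%), and edgeR and DESeq2 called 0, with 3 and 2 at that level. Of all genes, edgeR called 2 and DESeq2 224. Without the stressed Chinese Field Dog pituitary, the breed difference in that gland rests on the unexposed pair alone, with no repeat. The average over both glands then includes that single pair.

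Over both glands, 10 genes had the higher level in Chinese Field Dog in all 4 pairs (BUB1, BUB1B, KIF11, KIF20A, MCM6, MKI67, RRM2, TOP2A, TPX2 and TTK), against 8.73% of all genes, and AURKB and CDKN1B were lower in all 4, against 11.6%. For the average over glands limma called 0 (background 0.117%), 10 had an unadjusted p under 0.05 (background 10.4%), and edgeR and DESeq2 called 0, with 11 and 6 at that level. Among all genes edgeR called 15 and DESeq2 240 for this average. The difference between glands in the breed effect was called for 0 genes (background 0.0%), and 4 had an unadjusted p under 0.05 (CCNE2, KIF23, MCM2 and PCNA, background 6.22%). edgeR and DESeq2 called 0 there too, with 5 and 0 at that level, and DESeq2 gave an adjusted p for 27 of the 34. Across all genes edgeR called 0 and DESeq2 67.

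Some immune cells divide, and markers of T and natural killer cells and of macrophages were mostly higher in the Chinese Field Dog. Of 11 T and natural killer cell markers measured, 10 were higher in the Chinese Field Dog adrenal cortex at both exposures. Their sum was 30.9 and 34.0 FPKM in the Beagle and 76.2 and 87.8 in the Chinese Field Dog. NKG7 was at 0 reads in the Beagle and 1 read in each Chinese Field Dog adrenal library, and without it the Chinese Field Dog sums were 59.5 (unexposed) and 62.9 (stressed). CD247 was at 0 in both Chinese Field Dog adrenal libraries. Of 8 macrophage markers, 7 were higher at both exposures, with sums of 315 and 355 FPKM in the Beagle and 560 and 556 in the Chinese Field Dog. B and plasma cell markers did not share this direction as a group. In the adrenal cortex they summed to 2.48 and 2.79 against 4.02 and 3.47 FPKM, with 3 of 6 higher at both exposures. In the pituitary they summed to 7.18 (unexposed) and 2.87 (stressed) in the Beagle and to 6.17 and 14.9 in the Chinese Field Dog, with 2 of 6. In the pituitary the T and natural killer sums were 8.37 and 9.31 against 47.1 and 83.6 FPKM, with 9 of 11 markers higher at both exposures, and the macrophage sums were 86.7 and 114 against 215 and 251, with 8 of 8. Medulla markers were lower in the Chinese Field Dog adrenal cortex for 7 of 7 at both exposures, with sums of 5593 and 4707 FPKM in the Beagle and 3468 and 3189 in the Chinese Field Dog, and none at 0. The part of these cells in the breed values of the cell cycle genes was not tested.

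The third comparison set stressed against unexposed dogs. No gene of the 34 passed the test in either gland or over both. The values that follow describe single pairs of libraries. The unexposed Chinese Field Dog adrenal library that stood high in the breed comparison is also the control here, so the 2 comparisons are not independent.

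In the Chinese Field Dog adrenal cortex 25 of 34 genes were lower under stress, against 49.7% of all genes. The median log2 ratio was -0.37 against 0.00 over all genes. Among them 4 were at least 2-fold lower (KIF11, MKI67, TOP2A and TPX2), against 2.43% of all genes, and 0 were 2-fold higher, against 1.31% (3.74% different). The log2 ratio of scaled reads was -1.83 for MKI67 (95% exact counting interval -2.29 to -1.40), -1.17 for TOP2A (-1.46 to -0.88) and -1.14 for KIF11 (-1.59 to -0.70). The counting interval lay below equal levels for 15 genes (19.7% of all genes) and above for 5 (23.1%), which were BIRC5, CCNE1, CDKN1A, CDKN1B and MCM5. In the Beagle adrenal cortex 20 of 34 were lower under stress, near the 50.7% of all genes (median -0.11 against -0.01 over all genes). CDK1 alone reached 2-fold there, against 4.09% of all genes 2-fold lower and 5.26% different. CDK1 went from 6.96 FPKM (77 reads) unexposed to 2.82 (35 reads) stressed in the Beagle, and from 5.39 (74 reads) to 5.60 (59 reads) in the Chinese Field Dog. For KIF11 the Beagle log2 ratio of scaled reads was 0.02, with an interval of -0.63 to 0.67.

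Both breeds went the same way in the adrenal cortex for 19 genes. Of these 15 were lower under stress in both (26.4% of all genes), among them RRM2, TOP2A, MKI67, PLK1, CCND1 and CCNE2. The 4 that were higher in both (25.3%) were the inhibitors CDKN1A and CDKN1B and the helicase subunits MCM5 and MCM6. CDKN1B was at 35.2 FPKM unexposed and 41.3 stressed in the Beagle and at 33.1 and 38.3 in the Chinese Field Dog. CDKN1A was at 7.77 and 8.12 FPKM in the Beagle and at 7.75 and 9.27 in the Chinese Field Dog. For the adrenal stress difference limma called 0 of 34 and 0 were at an unadjusted p under 0.05 (0.0% and 3.76% of all genes), edgeR called 0 with 3 at that level, and DESeq2 0 with 1 (it gave an adjusted p for 18 of the 34). Across all genes edgeR called 0 and DESeq2 11. The median log2 difference of the limma fit was -0.22 against 0.00 over all genes. Markers of some other cells moved with stress in the adrenal cortex as well. Endothelial markers were higher in the stressed library for 6 of 7 in the Beagle (186 to 216 FPKM in sum) and 7 of 7 in the Chinese Field Dog (168 to 234). Medulla markers were lower for 6 of 7 (5593 to 4707 FPKM) and 5 of 7 (3468 to 3189). Macrophage markers were lower for 4 of 8 in the Beagle, with a higher sum (315 to 355 FPKM), and for 6 of 8 in the Chinese Field Dog (560 to 556). T and natural killer cell markers were lower for 9 of 11 and higher for 1 in the Beagle, and higher for 7 and lower for 3 in the Chinese Field Dog. Fat cell markers were lower for 3 of 3 in the Beagle (35.0 to 5.65 FPKM) and higher for 2 of 3 in the Chinese Field Dog (13.6 to 21.1). No endothelial or medulla marker was at 0, and the part of these cells in the stress values was not tested.

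In the pituitary the inhibitor CDKN1A was lower under stress in the Beagle and higher in the Chinese Field Dog. It was at 16.2 FPKM (1220 reads) in the unexposed and 7.51 (586 reads) in the stressed Beagle, and at 8.81 (682 reads) in the unexposed and 13.6 (964 reads) in the stressed Chinese Field Dog. The log2 ratio of scaled reads was -1.11 in the Beagle (95% exact counting interval -1.26 to -0.97) and 0.63 in the Chinese Field Dog (0.48 to 0.77). With these many reads counting error is small, but each ratio rests on 2 libraries and the difference between breeds was not tested. The stressed Chinese Field Dog pituitary is the library with forebrain and glial RNA, and the part of that in the CDKN1A value was not tested. Of 10 other p53-induced genes measured, 2 were higher and 8 lower under stress in the Beagle pituitary, with a median log2 ratio of -0.03, and 4 higher and 6 lower in the Chinese Field Dog.

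**Figure D4:**
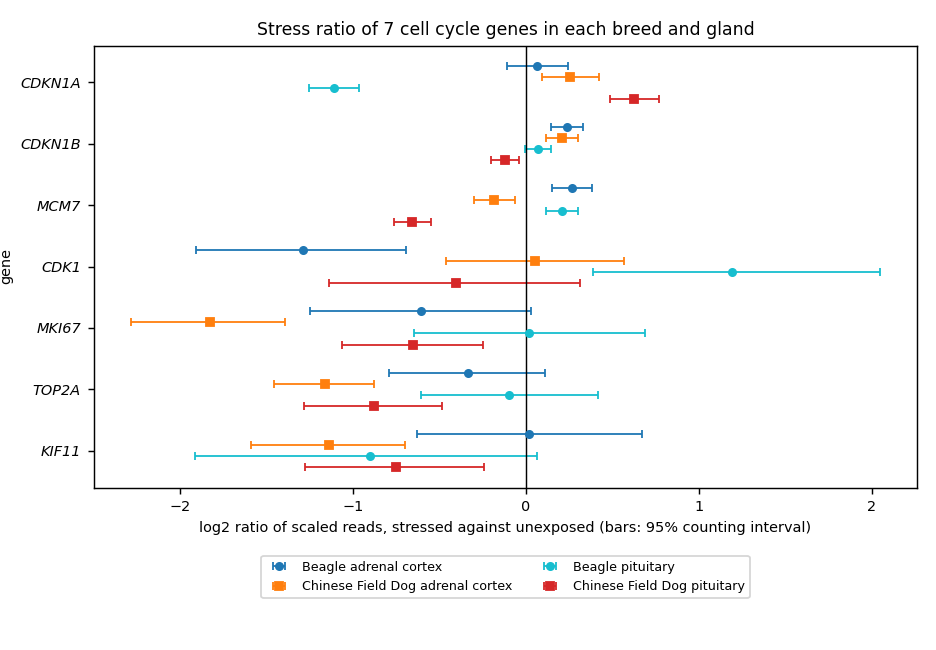
Log2 ratio of scaled reads, stressed against unexposed, for 7 genes in each breed and gland (points), with 95% exact counting intervals (bars) and equal levels marked at 0. CDKN1A lies at -1.11 in the Beagle pituitary and 0.63 in the Chinese Field Dog pituitary, and MKI67 lies furthest below 0 in the Chinese Field Dog adrenal cortex, at -1.83.

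In the Beagle pituitary 18 of 34 genes were lower under stress, near the 50.5% of all genes. Besides CDKN1A (2-fold lower, 1.61% of all genes) BUB1 and CDK1 were at least 2-fold higher (2.23%). Thus 3 of 34 differed 2-fold, as did 3.83% of all genes. BUB1 rests there on 3 and 14 reads, and CDK1 on 19 and 45. In the Chinese Field Dog pituitary 27 of 34 were lower, against 53.8% of all genes, with a median log2 ratio of -0.28 against -0.04 over all genes. There 0 reached 2-fold, against 11.6% of all genes different by that much. There CCND1 was at 34.7 FPKM unexposed and 21.1 stressed, and MCM7 at 18.4 and 11.6. In the Beagle pituitary CCND1 was at 28.9 and 31.3 FPKM and MCM7 at 16.9 and 19.5. In the pituitary both genes were thus lower under stress in the Chinese Field Dog pair and higher in the Beagle pair.

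Both breeds' pituitaries were lower under stress for 13 genes (26.9% of all genes) and higher for CCNE1 and TTK (22.4%). Without the stressed Chinese Field Dog pituitary, stress in the pituitary rests on the Beagle pair alone, with no repeat. For the pituitary with all libraries limma called 0 of 34, with 0 at an unadjusted p under 0.05 (0.0% and 5.18% of all genes), and edgeR and DESeq2 also gave 0 and 0. Of all genes, edgeR called 0 and DESeq2 68. Over both glands, 8 genes were lower under stress in all 4 pairs (AURKB, BUB1B, CCND2, CCNE2, MCM2, PLK1, RRM2 and TOP2A), against 6.98% of all genes, and 0 were higher in all 4, against 5.68%. PLK1, a kinase that acts throughout mitosis, went from 2.20 to 1.42 FPKM and from 2.25 to 1.60 in the adrenal cortex of Beagle and Chinese Field Dog, and from 3.29 to 2.29 and from 3.02 to 1.88 in the pituitary. Its average log2 difference was -0.56 (SE 0.17, limma adjusted p = 0.974). For this average limma called 0 of 34 (background 0.0%), PLK1 and AURKB had an unadjusted p under 0.05 (background 4.06%), edgeR called 0 with 7 at that level and DESeq2 0 with 0 (adjusted p for 29 of the 34). Among all genes edgeR called 0 and DESeq2 34. The difference between glands in the stress effect was called for 0 of the 34 genes by limma, edgeR and DESeq2, with 0 at an unadjusted p under 0.05 in each (limma background 0.0% and 4.49%), and DESeq2 gave an adjusted p for 33 of the 34. Across all genes edgeR called 0 and DESeq2 29.

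In the authors' deposited table, 0 of the 34 genes had a p-value of 0.05 or less in any of the 8 comparisons between libraries. The table marks all 34 as tested in 2 of the 8 comparisons and 27 to 31 in the others. The lowest in the authors' deposited table was 0.161, for BUB1 between the breeds' unexposed adrenal cortices. The lowest between stressed and unexposed Chinese Field Dog adrenal cortex in that deposited table was 0.198, for MKI67, and between stressed and unexposed Beagle pituitary 0.200, for CDKN1A. Of all genes tested in the authors' deposited table, 0.284% to 2.44% had a p-value that low, depending on the comparison.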

How the data were processed

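Libraries were made with the TruSeq RNA kit, and reads were aligned with TopHat to CanFam3.1 per the submitters' processing notes; versions, the counting program and the annotation are not given in the sources used here. The authors deposited 8 tables, each with 2 libraries, and repeats of a library's columns were the same (16 of 16 pairs compared). The deposited scaled counts are a signal per gene: multiples of 1 step per library (0.899 to 1.17), so reads divided by 1 size factor. Dividing by the step gave whole reads for 99.5% to 99.6% of values in the low range (tolerance 0.02), approximate for 2 libraries. The authors' FPKM values are corrected for gene length and depth. The p-value columns are the authors' own, and the deposited log2 columns were not used.

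Genes with a mean scaled count of at least 10 (15445 of 24580) entered limma 3.58.1 with trend on log2(FPKM + 0.1), with Benjamini-Hochberg adjustment over all of them, two-sided, threshold 0.05. The gland fit had the 4 breed and exposure pairs and the gland (3 residual degrees of freedom). The other fit had a level, a stress and a breed term per gland (2 residual degrees of freedom), so breeds served as repeats for stress and exposures for breed. Within a gland the 4 libraries differ in breed or exposure, so they come from different dogs, but no combination has a replicate. In this fit the residual spread is how far the breeds differ in their stress ratio within each gland. Differences between animals and technical spread are mixed into it and cannot be told apart. In the gland fit it is how far the gland difference varies between the 4 pairs. The labels do not say whether both glands of a pair came from the same animals. Single pairs got log2 ratios, a 2-fold threshold and 95% exact (Clopper-Pearson) intervals on recovered reads, which cover counting error only since PCR reads without molecular identifiers are not independent molecules. Alternatives were edgeR 4.0.16 and DESeq2 1.42.0 on recovered reads, TMM scaling, other filters, a pseudocount of 1 and leaving out libraries. The limma and edgeR fits were also run on simulated counts with known changes. There the sign and size of the larger changes were checked for limma only. No other differences between libraries were built in, and the calls by adjusted p were not part of that check.

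Members and lists were chosen with earlier results of these data known. All members are accounted for; other pathway genes are counts per list, and at most 4 per list are named, those with the largest change among the called. A search of promoters for motifs was planned, but no promoter sequence was used here.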

Additional observations from a re-analysis of the deposited data

Results flagged for a closer look

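In 68 groups of 4 libraries (34 genes in each gland), the highest or lowest library was compared with the rest, and 3 stood further apart than Dixon's 95% value allows; chance gives about 1 in 20 groups. MKI67 in the adrenal cortex of the unexposed Chinese Field Dog was at 1.79 FPKM, and the other adrenal libraries at 0.312 to 0.503. CCND2 in the same library was at 40.6 FPKM, and the others at 30.2 to 31.8. MCM6 in the unexposed Beagle pituitary was at 8.88 FPKM (537 reads), and the other pituitary libraries at 12.3 to 12.6.

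For 2 genes the stress ratio pointed in opposite directions in the breeds, with both counting intervals apart from equal levels, and the difference was not tested. CDKN1A in the pituitary had a log2 ratio of FPKM + 0.1 of -1.10 (Beagle) and 0.62 (Chinese Field Dog). MCM7 had 0.21 (Beagle) and -0.65 (Chinese Field Dog) in the pituitary, and 0.26 and -0.18 in the adrenal cortex. MCM7 reads may include those of COPS6, which its locus overlaps. From unexposed to stressed, COPS6 went from 78.2 to 81.5 FPKM (Beagle) and from 84.3 to 94.3 (Chinese Field Dog) in the pituitary. In the adrenal cortex COPS6 went from 131 to 125 FPKM (Beagle) and from 122 to 148 (Chinese Field Dog). The part of COPS6 in the MCM7 ratios was not tested.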

How the results depend on the processing

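Among the counts over all 34 genes, 138 under other settings equalled the main count or stayed within 1.5 times of it, and 12 moved. Most of the 138 set 0 stress or breed calls against 0 again, so they say little about stability. For single genes in the gland comparison, calls made were kept in 123 values and lost in 26, genes not called stayed so in 51 values and were called in 8, and 0 reversed. For stress and breed, 0 of the 34 genes were called under any setting run on all 8 libraries. A p was given for 34 in most of these settings, 26 under the filter on FPKM, and 18 to 34 with DESeq2. Among all genes, DESeq2 called 11 (stress, adrenal cortex) to 240 (breed, average over glands). The other settings on all libraries called 0 to 19 of all genes per comparison, so 0 calls among the 34 is near the background. Leaving out 1 library leaves 1 in a breed or exposure group of that gland, so calls from those fits are not given. Leaving out 1 breed and exposure pair at a time gave 7 to 16 gland calls against 15 (7389 to 9955 of all genes against 9414). With a pseudocount of 1 FPKM, the count of 2-fold different genes went from 4 to 0 for stress in the Chinese Field Dog adrenal cortex and from 3 to 1 in the Beagle pituitary. For the breed pairs it went from 11 to 2 in the unexposed adrenal cortex, from 3 to 0 in the stressed adrenal cortex, from 6 to 0 in the unexposed pituitary and from 2 to 0 in the stressed pituitary. For the gland pairs it went from 7 to 4 (unexposed Beagle), 8 to 2 (stressed Beagle), 9 to 4 (unexposed Chinese Field Dog) and 6 to 3 (stressed Chinese Field Dog). A pseudocount of 1 shrinks the ratios of genes under 1 FPKM by construction. With at least 50 scaled counts in the pair, the stressed pituitary breed count went from 2 to 1, since fewer genes were left. Pairing by animal was not possible because the labels give no replicate numbers. The gland fit paired the glands by breed and exposure only. Depth limits the genes that rest on under 50 reads a library, such as KIF20A and E2F1.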
